A study of Mus musculus with 2 samples.

Results

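Ephrins and semaphorins are ligands of the cell surface, and Eph receptors, plexins and neuropilins are the receptors that bind them. The genes of these families were taken by their symbols in the platform annotation, and 52 of the 18194 named genes on the array belonged to them (28 ligands and 24 receptors, with 123 probe sets). The ligands were 8 ephrins and 20 semaphorins, and the receptors were 13 Eph receptors, 9 plexins and 2 neuropilins. *Ephb2* is not analysed here. The rule by symbol used no measured value, although the genes were chosen with earlier results of these data known.

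The arrays, 1 for WT and 1 for *G9a*-KO, measured total RNA from mouse embryonic stem cells (ESCs). WT was TT2, ESCs established from the F1 cross of C57BL/6 females with CBA males. The *G9a*-KO cells were TT2 cells with 1 earlier mutant *G9a* allele and 1 floxed allele, from which Cre removes the exons of the catalytic SET domain core, so that G9a (gene *Ehmt2*), an H3K9 methyltransferase, is lost. The labels give both samples the same treatment, 800 nM 4-hydroxytamoxifen (4OHT) for 48 h and then 48 h without it. Whether WT received 4OHT is not stated separately, and the study's methods speak of *G9a* null cells kept on inactivated embryonic fibroblasts. Since each group has 1 array, no difference has a replicate check, and the comparison is of these cultures.

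Eph receptors form the largest family of receptor tyrosine kinases. Their ephrin ligands stay on the membrane, the A class by a GPI anchor and the B class by a transmembrane segment, so that signals pass between touching cells, in both directions, and control adhesion, repulsion and the boundaries between cell groups. Semaphorins are secreted or membrane-bound ligands of the plexins, whose cytoplasmic part acts on small GTPases of the Ras and Rap family, and the neuropilins serve as co-receptors for the secreted class and for VEGF.

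Levels are log2 values from which the 75th percentile of the array was subtracted, and each difference is *G9a*-KO minus WT. The median of all probe sets lay at -2.24 in WT and -2.13 in *G9a*-KO, and a value below it is called dim because its fold depends on the background. The targeted gene *Ehmt2* stood at 2.05 in WT and 0.51 in *G9a*-KO, 2.90-fold lower. Its other probe set was at -2.27 and -2.07, and as no source used here places the probes on the exons, neither value checks the label. Probe sets for RNA spiked in at hybridization (18) differed by -0.16 to 0.21 (SD 0.11). Those for the poly-A spikes (27) differed by -0.52 to 0.48 (SD 0.21), a range that passes 1.3-fold (0.38) in both directions. The robust SD of the differences of all genes was 0.36, a spread in which technical and real differences are mixed. Of 16 pluripotency markers, all above the median on both arrays, 3 were over 1.3-fold higher and 6 lower. Primitive endoderm markers were far higher in *G9a*-KO, with 20 of 23 over 1.3-fold higher, 0 lower and a summed linear signal of 4316 in WT and 27494 in *G9a*-KO. In bulk RNA, a change in the share of a cell type and a change in RNA per cell cannot be told apart.

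At 1.3-fold, the threshold that the study used for this pair of arrays, 14 of the 52 genes (26.9%) were higher in *G9a*-KO, and 8 (15.4%) were lower. Among all 18194 genes, 17.4% were over 1.3-fold higher and 17.2% lower. By the brightest probe sets, the semaphorins *Sema5a* and *Sema4c* were 4.97-fold and 4.55-fold higher and the ephrin *Efna2* was 3.21-fold lower. The WT values of both semaphorins were dim, and the difference of *Sema5a*, 2.31 by its brightest probe set, was 1.17 with the mean and 0.89 with the median of its probe sets. At 2-fold, 7 (13.5%) were higher and 4 (7.69%) lower, beside 4.61% and 3.76% of all genes. The median difference of the 52 genes was 0.16, and that of all genes 0.04, and centring each array on its median lowers both by 0.10. Dim genes differed less often than others, so the counts were also made among the 12154 genes with a mean level above the median, a group picked once the values were known. There, 13 of 38 members (34.2%) were over 1.3-fold higher and 7 (18.4%) lower, beside 20.5% and 22.5%. At 2-fold, 6 were higher and 4 lower, beside 5.84% and 5.05%. A mean can pass although 1 array is dim, as for *Sema4c*, *Sema4a* and *Sema3b*. With only probe sets above the median on both arrays, 12 of 35 members were over 1.3-fold higher and 5 lower, beside 19.6% and 21.9% of genes. At 2-fold, that filter left 5 higher and 2 lower.

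Ligands and receptors had similar medians, and how far their splits into higher and lower genes differed depended on the rule for probe sets. Of the 28 ligands, 7 (25.0%) passed 1.3-fold upward and 6 (21.4%) downward, around a median of 0.18. Of the 24 receptors, 7 (29.2%) were higher and 2 (8.33%) lower, and the median was 0.15. Among all genes, the shares were 17.4% and 17.2%. At 2-fold, 3 ligands were higher and 4 lower, and 4 receptors were higher and 0 lower, beside 4.61% and 3.76% of all genes. Where at least 1 probe set past 1.3-fold was enough, 13 ligands were higher and 8 lower, and 7 receptors were higher and 4 lower. That rule called 24.6% and 22% of all genes. Of the genes past 1.3-fold by the brightest probe set, 77.8% of receptors and 53.8% of ligands were higher. By the probe set with the largest difference, these shares were 63.6% and 57.9%. The difference between ligands and receptors was not tested. By attachment, 1 of the 7 secreted ligands was higher and 1 lower, 2 of the 6 GPI-anchored ligands were higher and 2 lower, and 4 of the 15 transmembrane ligands were higher and 3 lower. Primitive endoderm markers, all 23 of which lay above the median on at least 1 array, had a median difference of 2.64, and trophoblast markers were mostly higher too (10 of 15 over 1.3-fold higher, 1 lower, summed signal 2815 and 4651). Neuroectoderm markers went the other way (1 of 18 higher, 7 lower, summed signal 2581 and 1267). These counts stand beside 17.4% higher and 17.2% lower among all genes. Among the trophoblast markers, the keratins *Krt19* (2.79), *Krt18* (1.17) and *Krt8* (1.09), not limited to trophoblast, were bright and higher. *Tfap2c* (-0.55) was the lower one, and 3 of the 15, *Cdx2*, *Gata3* and *Tpbpa*, were dim on both arrays. The part of these cell types in the values below was not tested.

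**Figure D1:**
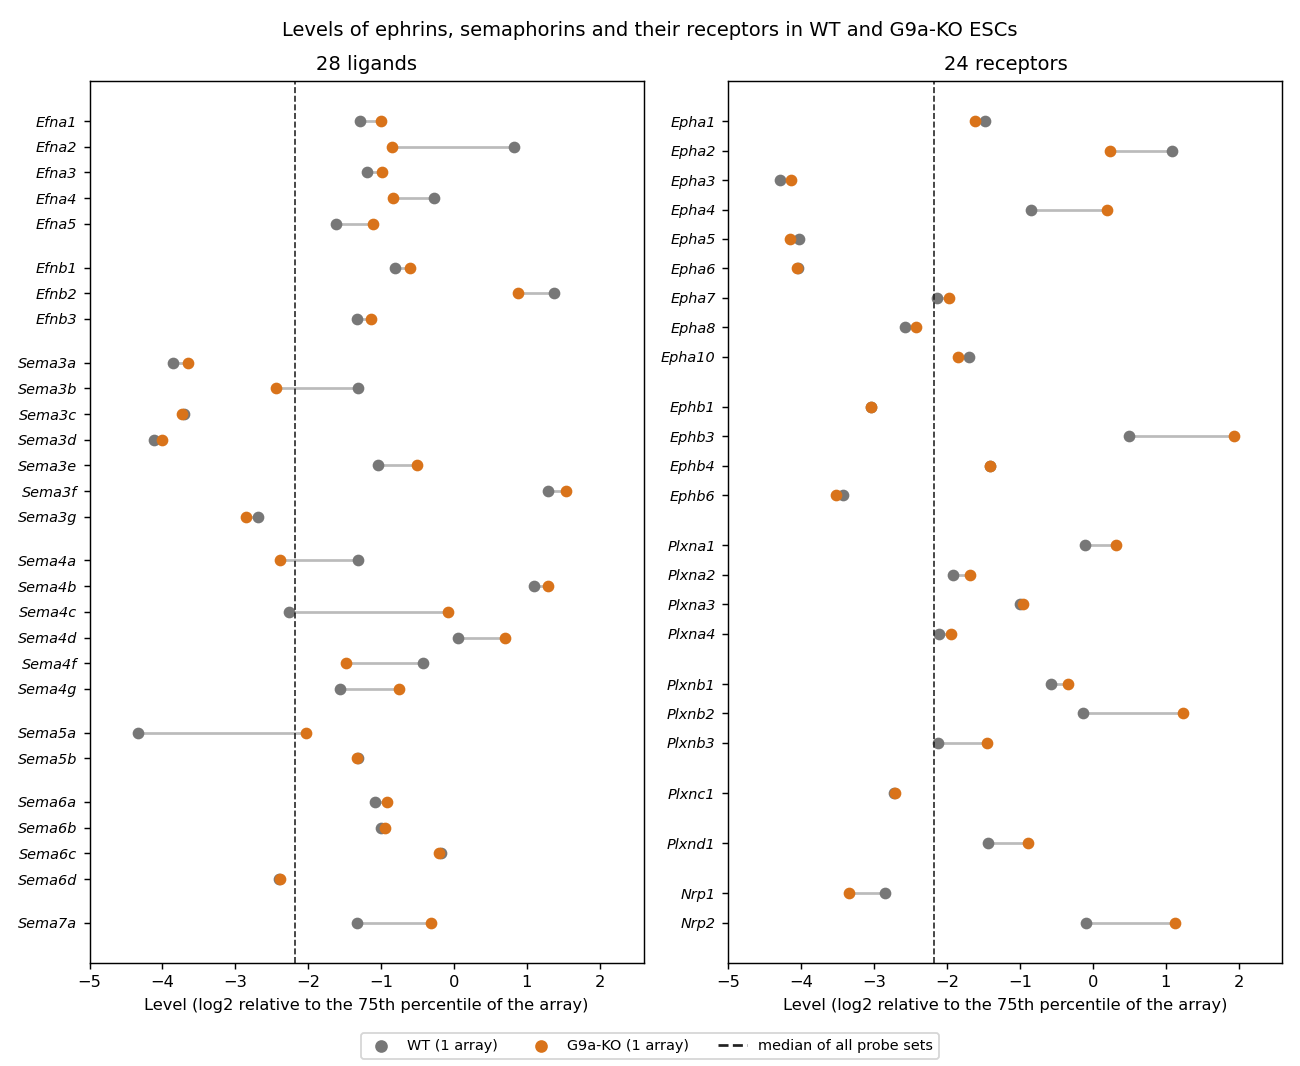
Level of the 28 ligands (left) and 24 receptors (right) on the WT and *G9a*-KO arrays, by the brightest probe set of each gene (horizontal axis, log2 minus the 75th percentile of its array), with 1 point per gene and array, a line joining them and a dashed line at the mean of both array medians. *Efna2*, *Epha2* and *Efnb2* run from right to left between WT and *G9a*-KO, whereas *Ephb3*, *Plxnb2*, *Nrp2* and *Sema4c* run from left to right.

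The Eph receptors were represented by a few expressed genes. Of the 13, 7 lay above the median on at least 1 array, 2 passed 1.3-fold upward and 1 downward, and the median difference was -0.0005. *Ephb3*, a B-class receptor known from the ordering of cells along the intestinal crypt, lay at 0.49 in WT and 1.93 in *G9a*-KO, 2.72-fold higher. *Epha4*, which binds ephrins of both classes, lay at -0.84 and 0.19, 2.05-fold higher. Its other 3 probe sets above the median differed in the same direction, by 0.62, 1.10 and 1.41, which makes it the receptor whose difference rested on the most probe sets. *Epha2*, an A-class receptor of early embryos and epithelia, lay at 1.08 and 0.23, a difference of -0.85. It was the only Eph receptor past the threshold in that direction. The other Eph receptors above the median stayed within 1.3-fold, namely *Ephb4* (-0.0005), the receptor of venous endothelium, *Epha1* (-0.13), *Epha7* (0.17) and *Epha10* (-0.15).

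Among the ephrins, all 8 lay above the median on both arrays, 3 were over 1.3-fold lower and 1 was higher. *Efna2*, a GPI-anchored A-class ephrin, lay at 0.83 in WT and -0.86 in *G9a*-KO. Its other probe set, also above the median, differed by -0.49, so the direction held and the size did not. *Efna4*, of the same class, lay at -0.27 and -0.84, a difference of -0.57. *Efnb2*, the transmembrane ephrin of arterial endothelium, lay at 1.38 and 0.87, 1.42-fold lower, and its second bright probe set differed by -0.38. Its other 2 probe sets, both dim, ran the other way (0.39 and 0.09). *Efna5*, an A-class ephrin that patterns the retinal projection, was the member that was higher, at -1.61 in WT and -1.11 in *G9a*-KO (1.41-fold). The other ephrins *Efna1* (0.29), *Efna3* (0.21), *Efnb1* (0.20) and *Efnb3* (0.20) stayed within the threshold by their brightest probe sets, but the second probe sets of *Efna1* (0.49) and *Efna3* (0.41) passed it.

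Of the 20 semaphorins, 6 were over 1.3-fold higher and 3 lower, and at 2-fold 3 were higher and 3 lower. Class 4, the transmembrane semaphorins with an immunoglobulin domain, held most of them, with 3 of 6 higher and 2 lower. *Sema4c*, a ligand of plexin B2, lay at -2.27 in WT, just under the median there, and at -0.08 in *G9a*-KO, so its 4.55-fold difference is not exact. *Sema4g* lay at -1.57 and -0.75, 1.76-fold higher. *Sema4d*, the ligand of plexin B1 first known from immune cells, lay at 0.06 and 0.70, 1.56-fold higher, while its other bright probe set differed by 0.21, within the threshold. *Sema4a*, which acts on immune cells and in the retina, lay at -1.32 in WT and -2.38 in *G9a*-KO, 2.09-fold lower, and its other probe set differed by -0.84. The *G9a*-KO values of both probe sets were dim, so these sizes are not exact. *Sema4f* lay at -0.42 and -1.48, 2.08-fold lower. The values of *Sema4a* and *Sema4f* come from probe sets of the type that can bind several transcripts, and the other probe set of *Sema4f* differed by -0.27, within the threshold. *Sema4b*, the remaining gene of the class, stayed within the threshold, at 1.10 and 1.29, although its second probe set (0.40) passed it.

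Because class 4 held genes that differed strongly in both directions, the bases just upstream of 4 of them, picked after their values were seen, are shown, with every CG dinucleotide, the site of DNA methylation, in capitals. Each is the 250 bases before the annotated start furthest upstream, 5′ to 3′ on the strand of the gene, from RefSeq (GRCm38.p6), and no methylation was measured on these arrays. *Sema4c* and *Sema4g* were higher in *G9a*-KO and *Sema4a* and *Sema4f* lower. The windows lie at chr1:36558382-36558631 on the minus strand (*Sema4c*, 15 CG), chr19:44989094-44989343 on the plus strand (*Sema4g*, 24 CG), chr3:88461183-88461432 on the minus strand (*Sema4a*, 2 CG) and chr6:82939770-82940019 on the minus strand (*Sema4f*, 4 CG).
Sema4c: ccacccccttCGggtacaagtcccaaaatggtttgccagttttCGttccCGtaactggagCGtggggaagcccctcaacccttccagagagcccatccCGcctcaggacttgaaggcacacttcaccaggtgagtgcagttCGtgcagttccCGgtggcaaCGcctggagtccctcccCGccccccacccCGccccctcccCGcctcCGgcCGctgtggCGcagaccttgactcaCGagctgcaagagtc
Sema4g: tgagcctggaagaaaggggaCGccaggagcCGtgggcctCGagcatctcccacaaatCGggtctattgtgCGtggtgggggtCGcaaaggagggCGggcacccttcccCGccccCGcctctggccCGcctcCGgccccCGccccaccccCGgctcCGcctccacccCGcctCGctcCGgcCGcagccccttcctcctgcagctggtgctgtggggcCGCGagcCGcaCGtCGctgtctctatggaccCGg
Sema4a: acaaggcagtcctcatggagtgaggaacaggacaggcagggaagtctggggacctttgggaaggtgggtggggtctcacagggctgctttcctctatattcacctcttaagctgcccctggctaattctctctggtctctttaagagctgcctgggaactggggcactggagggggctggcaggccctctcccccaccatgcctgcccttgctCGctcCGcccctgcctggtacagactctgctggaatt
Sema4f: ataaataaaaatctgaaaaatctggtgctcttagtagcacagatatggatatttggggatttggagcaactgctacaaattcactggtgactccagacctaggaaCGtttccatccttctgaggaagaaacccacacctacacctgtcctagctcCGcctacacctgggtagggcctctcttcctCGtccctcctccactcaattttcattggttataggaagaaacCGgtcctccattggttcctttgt
The genes that were higher carry more CG in these windows than the genes that were lower, but the class as a whole gave no such split. *Sema4a* has 4 annotated windows with 2 to 13 CG, *Sema4c* has a second window with 23, *Sema4d* was higher with only 1 or 2, and *Sema4b* stayed within the threshold with 20 and 23.

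Windows of this kind were found for 46 of the 52 genes. All 46 held at least 1 CG, beside 91.7% of the 27025 genes in the table, and the median number of CG was 16, beside 6. These 27025 genes were not limited to those on the array, so the sets are not alike. The median number was 16 for the 13 genes over 1.3-fold higher, 9 for the 7 over 1.3-fold lower and 16.5 for the 26 within the threshold. The letters CACGTG, the E-box that MAX and its partners bind, are a palindrome that reads alike on both strands. They stood in 2 of the 46 windows (4.35%), beside 6.04% of the 27025 genes. These were the windows of *Epha8* and *Sema6d*, both within 1.3-fold, and none of the 10 genes past 2-fold that have a window held it. At a share of 6.04%, 10 windows are too few for anything to be read from that. Only the window furthest upstream of each gene was counted, and the *Sema4b* window with 23 CG, which was not, held 1.

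In the other classes of semaphorins, few genes passed 1.3-fold. *Sema5a*, whose extracellular part carries thrombospondin repeats, was far below the median in WT (-4.34) and just above it in *G9a*-KO (-2.02), so its 4.97-fold difference is not exact. Its other 3 probe sets were dim on both arrays and all higher in *G9a*-KO, by 1.01, 0.77 and 0.60. *Sema5b* was level (-0.03). *Sema7a*, the only GPI-anchored semaphorin, lay at -1.33 in WT and -0.32 in *G9a*-KO, 2.02-fold higher, whereas its other, dim probe set differed by 0.04. In class 3, the secreted semaphorins, *Sema3b* lay at -1.32 and -2.44, 2.18-fold lower, but the lower value was dim and the other probe set above the median was level. *Sema3e*, the class 3 ligand that binds plexin D1 without a neuropilin, lay at -1.04 and -0.50, 1.45-fold higher, its other probe set above the median differed by 0.29, and its dim probe sets ran both ways. *Sema3f*, a ligand that signals through *Nrp2*, stayed within the threshold, at 1.29 and 1.53. That probe set is of the type that can bind several transcripts, and the other one above the median lay at -1.70 and -1.53. The 4 class 6 semaphorins, which bind A-type plexins, differed by -0.02 to 0.17, and none passed.

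All 9 plexins had differences above zero, but only 7 did without a shift of the deposited values with median centring, or with the mean, the median or the largest difference of the probe sets, and 8 with quantile or lowess normalization. The other probe sets of *Plxna2* above the median on at least 1 array differed by -0.19 and -0.26. At 1.3-fold, 4 were higher and 0 lower (1 with the largest difference of the probe sets), and the median was 0.24. *Plxnb2*, a receptor of class 4 semaphorins needed for neural tube closure, lay at -0.14 in WT and 1.23 in *G9a*-KO, 2.57-fold higher. *Plxnb3*, a receptor of *Sema5a*, lay at -2.13 and -1.45, 1.60-fold higher. That probe set may bind several transcripts, and the other one differed by 0.21, within the threshold. *Plxnb1* stayed within 1.3-fold (0.22). *Plxnd1*, which guides the growth of blood vessels, lay at -1.43 and -0.90, 1.45-fold higher. *Plxna1* lay at -0.11 and 0.32, 1.35-fold higher, and passed the threshold by little. The other A plexins and *Plxnc1* differed by 0.01 to 0.24. Median centring takes *Plxna1* to 0.33, under the threshold.

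Of the neuropilins, *Nrp2* was above the median and *Nrp1* was not. *Nrp2*, the co-receptor of class 3 semaphorins such as *Sema3f* and of VEGF-C, lay at -0.10 in WT and 1.12 in *G9a*-KO, 2.33-fold higher. Its other probe sets above the median differed by 0.35 and -0.04, so the call rests on 1 probe set. *Nrp1*, the co-receptor of *Sema3a* and VEGF-A, was dim on both arrays, at -2.85 and -3.35, and its other 3 probe sets, also dim, differed by -0.19, -0.11 and 0.22, so it has no settled direction. It falls outside the rule for named genes and was picked out because it is 1 of the 2 receptors counted as lower.

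**Figure D2:**
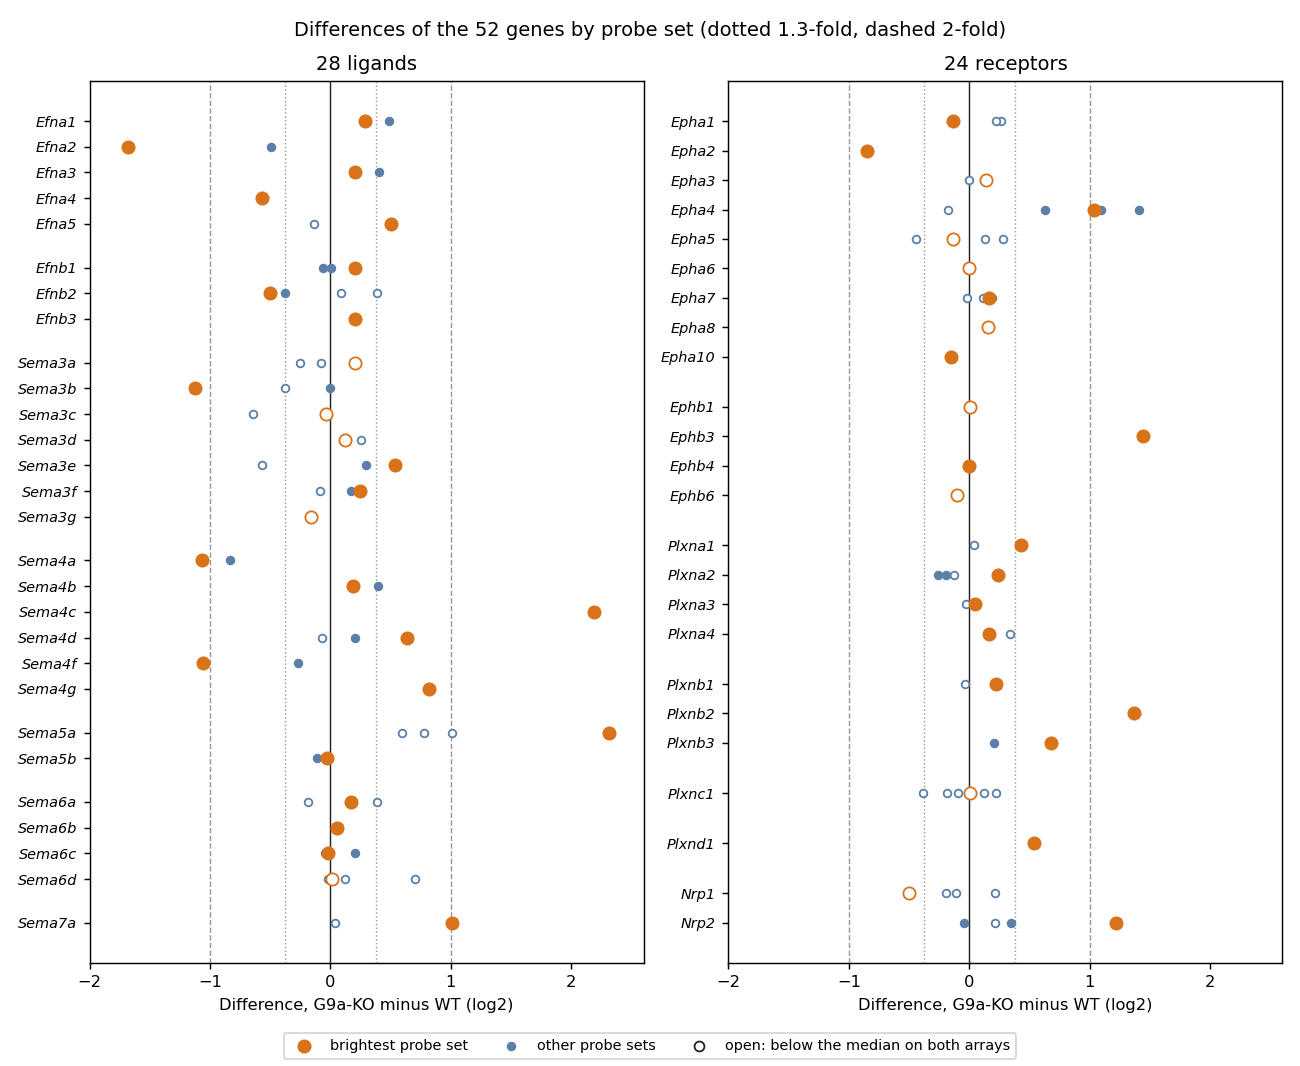
Difference between *G9a*-KO and WT (horizontal axis, log2) for every probe set of the 28 ligands (left) and the 24 receptors (right), with the brightest probe set of a gene as a large point and dotted and dashed lines at 1.3-fold and 2-fold. All brightest probe sets of plexins lie to the right of zero with the 75th percentile shift (7 of 9 with no shift, median centring or the other rules for several probe sets, and 8 with quantile or lowess normalization), and the probe sets of *Nrp2*, *Sema3b* and *Sema4f* lie far apart.

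Probe sets of a gene gave the only check within the arrays, although they are not replicates. For 18 members, more than 1 probe set lay above the median, and in 14 (77.8%) all of them ran in 1 direction, as they did in 3525 of 5371 such genes (65.6%) on the whole array. The 4 members with both directions were *Efnb1*, *Nrp2*, *Plxna2* and *Sema6c*. *Sema4c*, *Sema4g*, *Efna4*, *Ephb3*, *Epha2*, *Plxnb2* and *Plxnd1* had a single probe set, so their values have no such check. Genes of similar level also spread widely, and the differences of *Efnb2*, *Plxna1* and *Sema3e* were smaller than the robust SD of genes at their level (0.53, 0.59 and 0.56). The 13 members below the median on both arrays (5 ligands and 8 receptors) differed by -0.50 to 0.21, and *Nrp1* was the only one past 1.3-fold. By the rule of the study, in which at least 1 probe set past the fold is enough, 20 members were higher and 12 lower, 2 of them counting in both directions, beside 24.6% and 22% of all genes. At 2-fold this rule gave 7 and 4, beside 6.23% and 5.25%. Several probe sets were present for 36 of the 52 members and for 9012 of the 18194 genes. The rule thus gave members more chances to pass, and these shares are not like for like.

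Known ligand and receptor pairs were set side by side from a list of 21 pairs made after the values were seen. In 5 pairs both partners were over 1.3-fold higher, namely *Sema4c* (2.19) and *Sema4g* (0.81) with *Plxnb2* (1.36), *Sema5a* (2.31) with *Plxnb3* (0.68), *Sema3e* (0.54) with *Plxnd1* (0.54), and *Efna5* (0.50) with *Epha4* (1.04). The list does not hold the lower ligands *Efna2*, *Efna4*, *Sema3b* and *Sema4f*, so nothing is read from pairs that were lower together. In 2 pairs the ligand was lower and the receptor higher, *Efnb2* (-0.50) with *Epha4* and *Sema4a* (-1.07) with *Plxnd1*. In the 2 listed pairs with a lower receptor, *Epha2* (-0.85) with *Efna1* (0.29) and the dim *Nrp1* with *Sema3a*, the ligand stayed within the threshold. The list sets *Epha2* beside no other ephrin, so nothing is read from these pairs either. For *Sema7a* (1.01), the plexin partner *Plxnc1* was dim and level (0.01). Another receptor of *Sema7a*, the beta-1 integrin chain *Itgb1*, is not among the listed pairs and was 2.87-fold higher. Some genes, such as *Plxnb2*, stand in several pairs, so the pairs are not independent. As the list was made with the values known, the number of pairs higher together is not read as agreement of ligands and receptors.

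**Figure D3:**
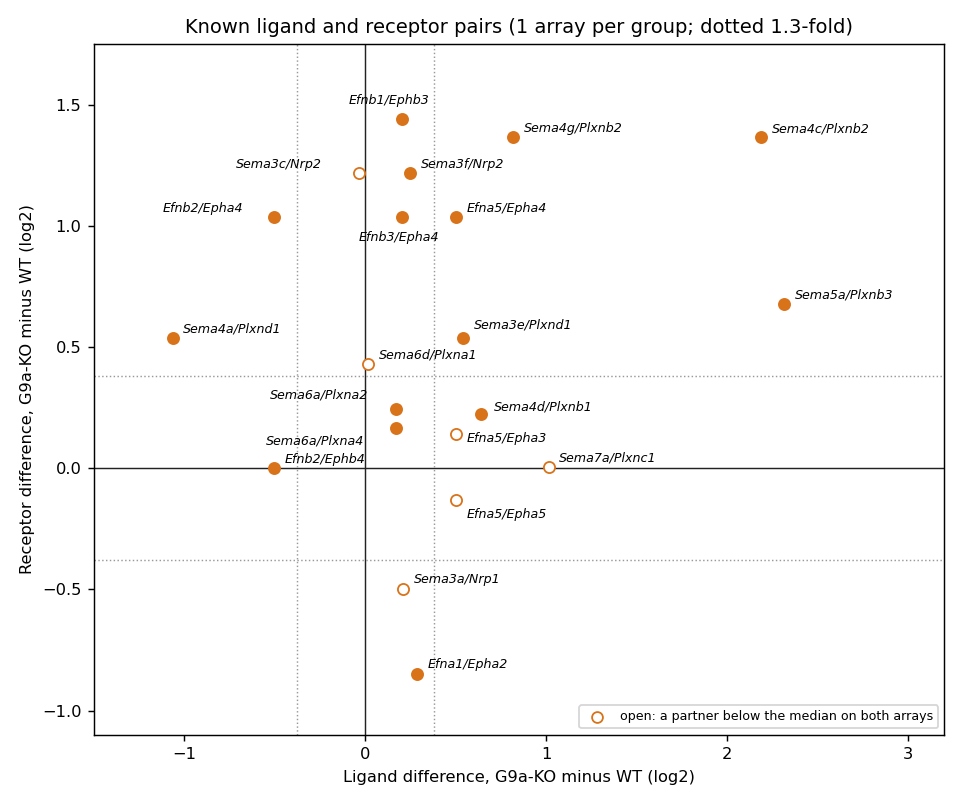
Difference of the receptor (vertical axis, log2, *G9a*-KO minus WT) against that of the ligand (horizontal axis, same scale) for 21 known pairs, 1 point per pair, with dotted lines at 1.3-fold and open points where a partner was below the median on both arrays. The 5 pairs in the upper right corner include *Sema4c* with *Plxnb2* and *Sema5a* with *Plxnb3*. The pairs were listed after the values were seen.

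Genes that act with these families were counted from lists. Of 29 partners of Eph and ephrin signalling, 5 (17.2%) were over 1.3-fold higher and 4 (13.8%) lower, close to the shares of all genes. *Kalrn*, an exchange factor downstream of EphB receptors, lay at -2.51 in WT, a dim value, and -0.06 in *G9a*-KO, 5.47-fold higher. *Adam10*, the protease that cleaves ephrins off the membrane, lay at 1.66 and 3.09, 2.70-fold higher by 3 probe sets that ran the same way. *Arhgef15*, an exchange factor bound by EphB2, lay at -1.08 and -2.43, 2.55-fold lower with a dim value in *G9a*-KO. *Abl2*, a cytoplasmic kinase, lay at 2.36 and 1.44, 1.89-fold lower, with probe sets in both directions.

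Of 45 partners of semaphorins and plexins, 13 (28.9%) passed 1.3-fold upward and 9 (20%) downward, and the median was -0.0049. Among all genes, the shares were 17.4% and 17.2%. Of the 45, 41 lay above the median on at least 1 array. Among all genes with a mean above the median, the shares were 20.5% and 22.5%. The contrast with these shares was not tested. *Timd2*, described as a receptor of *Sema4a*, lay at -2.60 in WT and 0.96 in *G9a*-KO, 11.8-fold higher, and *Itga1*, an integrin chain that pairs with *Itgb1*, at -2.53 and 0.02, 5.87-fold higher. Both were dim in WT, so these folds are not exact, and *Timd2* belongs to a family of similar sequences that may share probes. *Vegfa*, which shares the neuropilins with semaphorins, lay at -1.77 and -0.07, 3.25-fold higher. *Crmp1*, a cytosolic mediator of *Sema3a* signals, lay at 1.24 and -1.01, 4.76-fold lower. Further members, chosen after their values were seen, were the MICAL enzymes *Mical1* (-0.84) and *Mical3* (-0.44) and the small GTPase *Rnd1* (-1.44, dim in *G9a*-KO), which acts on plexins, all lower, and the Ras proteins *Rras* (0.68) and *Rras2* (0.87), on which plexins act, both higher. *Rnd3* (0.82) was higher, and *Dpysl2* (-1.39), a relative of *Crmp1*, had probe sets in both directions.

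For comparison, 32 genes of the other guidance families (netrins, slits, their receptors and relatives) had 6 (18.8%) over 1.3-fold higher and 2 (6.25%) lower, with a median of 0.07. Below the median on both arrays were 15 of these 32, and 13 of the 52 ephrin, semaphorin and receptor genes. *Ntn1*, the founding netrin, lay at 0.07 in WT and -1.56 in *G9a*-KO, 3.10-fold lower, and the netrin receptor *Unc5b* lay at -0.88 and -0.33, 1.47-fold higher. *Robo1*, a slit receptor, was 4.32-fold higher by its brightest probe set and lower by another, and *Robo4*, of the same family, was 1.52-fold higher. At 2-fold, 1 of the 32 was higher and 1 lower, beside 7 and 4 of the 52 genes described here. That contrast was not tested.

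The methods place the *G9a*-KO cells on fibroblasts, so fibroblast markers were read as well. Of 24, 7 (29.2%) were over 1.3-fold higher and 1 (4.17%) lower, beside 17.4% and 17.2% of all genes. The median was 0.14, and the summed linear signal was 3984 in WT and 5154 in *G9a*-KO. A linear sum weighs bright genes most, and *Fn1*, the brightest of the 7, lay at 1.71 and 3.31. *Vim* (-0.05), *Acta2* (0.30), *Tagln* (-0.25) and *Col6a2* (-0.25), all above the median, stayed within 1.3-fold. The markers *Col5a2* (3.06), *Timp3* (1.65), *Fn1* (1.61), *Col6a3* (1.37) and *Col1a2* (0.83) were higher in *G9a*-KO, *Fstl1* (-1.66) was lower, and 11 of the 24, among them *Col1a1*, *Col3a1*, *Postn* and *Thy1*, were dim on each array. Their part in the values above was not tested.

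**Figure D4:**
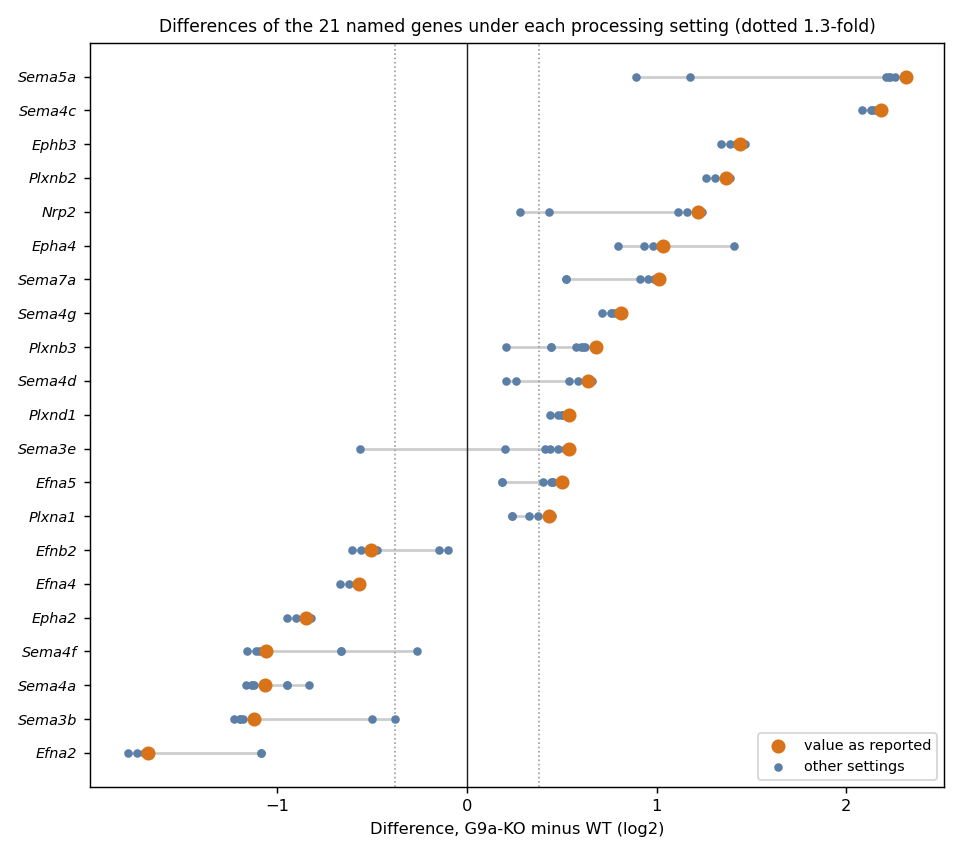
Difference (horizontal axis, log2, *G9a*-KO minus WT) of the 21 genes named by rule, 1 row per gene, with a large point for the value in the text, small points for the other processing settings and dotted lines at 1.3-fold. Of these genes, 12 stay past 1.3-fold under every setting that measured them, and *Sema3e* is the one that crosses zero.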

How the data were processed

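The data were 2 Affymetrix mouse expression arrays, 1 of WT and 1 of *G9a*-KO ESCs, made from 200 ng of total RNA each. The deposited values are log2 intensities. The submitters' processing notes name RMA and R 3.2.1. RMA corrects background and brings the arrays to one distribution, so a difference in total RNA per cell cannot be seen. The arrays correlated at r = 0.976 over 45101 probe sets, which are not replicates. Depth is not defined for arrays, and their number limits the precision.

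As in the methods of the study, the 75th percentile of each array was subtracted (7.37 in WT, 7.31 in *G9a*-KO) and the log2 difference (*G9a*-KO minus WT) was computed, with thresholds of 1.3-fold and 2-fold. Of the probe sets, 34958 had 1 gene symbol in GEO's platform annotation and were used, 932 had several and 9211 were unnamed here. A gene took the value of its brightest probe set (highest mean of the 2 arrays). A check of the computation on simulated data asked only whether the medians of planted differences came back. It set no limit on how many genes without a planted difference pass the thresholds. No p-value was computed. Genes were named where the value passed 1.3-fold and was above the median of at least 1 array, and for lists the 4 such members with the largest difference. The genes and lists were chosen with earlier results of these data known. Alternatives were other scalings (no shift, median centring, quantile normalization, lowess with span 0.3), filters on dim probe sets, omission of probe sets ending in _s_at or _x_at, and other rules for several probe sets. Promoter sequences came from RefSeq (GRCm38.p6), with the window lying furthest upstream where a gene has several. Python 3.11.15, numpy 2.4.6, pandas 2.3.3, statsmodels 0.14.6 and matplotlib 3.10.9 were used.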

Additional observations from a re-analysis of the deposited data

How the results depend on the processing

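The scalings left the counts of members within 1.5 times their value, with 13 or 14 over 1.3-fold higher and 8 lower, although median centring turned the shares of all genes from 17.4% higher and 17.2% lower to 13% and 22.3%. At 2-fold, 5 members were higher with no shift or with median centring and 6 with quantile or lowess normalization, in place of 7. With no shift, *Epha4* was at 0.98 and *Sema7a* at 0.96. The rule for several probe sets and the filter on dim ones moved counts by more. Members over 1.3-fold lower numbered 5 with only probe sets above the median on both arrays and 5 with the median of the probe sets, in place of 8. Members over 2-fold higher numbered 4 with the mean and 4 with the median of the probe sets, in place of 7. Members over 2-fold lower numbered 2 with probe sets above the median on both arrays, 2 without _s_at and _x_at probe sets, 1 with the mean and 1 with the median, in place of 4. Ligands over 1.3-fold higher numbered 11 with the probe set of largest absolute difference and 13 where at least 1 probe set was enough, in place of 7. Receptors over 1.3-fold lower, 2 in the text, numbered 4 under those rules, and 1 with either filter on probe sets, with the mean, with the median and among genes with a mean above the median, the last chosen after seeing the data. The causes were not tested, except that filters measured fewer genes.

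Of 226 values of the 21 named genes under 11 alternatives, 225 kept their direction and 16 no longer passed 1.3-fold. *Sema3e* reversed to -0.56 with the probe set of largest absolute difference, a dim one. The mean or median of the probe sets took *Sema4d* to 0.26 and 0.21, *Efnb2* to -0.10 and -0.15 and *Efna5* to 0.18, and the median took *Nrp2* to 0.28 and *Sema3b* to -0.38. Without _s_at and _x_at probe sets *Sema4f* was at -0.27 and *Plxnb3* at 0.21. No paired analysis was possible because each group has 1 array, and no array could be left out.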

Other observations

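Members that lie next to each other in the genome did not always differ alike. In the RefSeq gene order (GRCm38.p6), *Efna1*, *Efna3* and *Efna4* follow each other on chromosome 3, and they differed by 0.29, 0.21 and -0.57. *Sema3b* and *Sema3f*, on chromosome 9 with 3 protein-coding genes between them, differed by -1.13 and 0.25. *Sema3d* and *Sema3a* are neighbours on chromosome 5 and, like most class 3 genes, were dim (0.12 and 0.21), while *Sema3e*, 3 genes further, differed by 0.54.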
